A study of Homo sapiens with 3 samples.

Results

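The control-only HDAC1 summits are the positions called in untreated HepG2 cells that had no counterpart after H89. They were chosen by position alone, as summits of the control list with no H89 summit within 1000 bp on the same chromosome, and 1173 of the 9476 control summits met that rule (12.4%). The remaining 8303 control summits are called shared below. The summit positions of both libraries chose the members, so their lack of a partner is a description and supports nothing.

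HDAC1 was profiled by CUT&Tag, in which an antibody guides a tagging transposase to its target in permeabilised cells. The samples were 1 HDAC1 library from cells given H89, an inhibitor of the cAMP-dependent kinase PKA, 1 HDAC1 library from untreated cells, and 1 IgG library from untreated cells, all from wild type HepG2. HepG2 is a hepatocellular carcinoma line with extra copies of several chromosomes. Neither dose nor duration of H89 is stated in the labels, the series title alone names HDAC1 as the target, and IgG values were not analysed here. A background measured like the HDAC1 values is therefore missing. With 1 library per condition there was no replicate check and no test between conditions. Intervals are exact (Clopper-Pearson) 95% binomial intervals for shares and Newcombe 95% intervals for differences between shares. They cover counting error only and treat summits as independent, although neighbouring summits of 1 library are not. Read depth is unknown.

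HDAC1 is a class I histone deacetylase that works as the catalytic subunit of corepressor complexes such as NuRD, Sin3 and CoREST. It has no DNA-binding domain of its own and is brought to chromatin by these partners. Deacetylase complexes are known to sit at both repressed and active promoters and enhancers, where they remove acetyl groups placed by acetyltransferases. PKA is a kinase of the cAMP pathway, which in liver cells carries the glucagon signal.

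Control-only summits were low-scoring calls, and most of them had the smallest count that the scores of the list imply. The deposited score is read as the −log10 of a p-value. Its median was 3.45 in control-only summits (quartiles 2.97 and 3.45) and 4.77 in shared control summits (quartiles 3.45 and 6.70). The 1173 control-only summits took 65 distinct scores, against 312 in shared control summits. A single score, 3.45, was held by 410 control-only summits (35.0%, interval 32.2 to 37.8), against 1142 shared control summits (13.8%, interval 13.0 to 14.5). The second most frequent among control-only summits, 2.97, was held by 213 control-only summits (18.2%) and by 537 shared control summits (6.47%).

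Most of these repeated scores could be read as counts. The scores 3.45 and 2.97 were each equated with the Poisson probability of at least 2 counts, which gave a lowest mean of 0.0269 and a second mean of 0.0473. Those 2 means, the whole multiples of the second up to 10, and a mean of exactly 1 then matched 93.7% of all control scores (interval 93.2 to 94.2) to within 0.0005. The 1552 control summits that scored 3.45 and the 750 that scored 2.97 match by construction, since the means were solved from those scores. All control summits took 321 distinct scores, so summits with the same score match or fail together. In a simulation, 0.8% of scores drawn evenly from 2 to 10 matched, with means fitted to simulated scores rather than to the control list. Its draws did not copy the repeated scores, so the 0.8% and the 93.7% are not like measures. Each matched score is read as a count at the summit and a local background mean. The peak caller is not stated, so the count may carry a fixed offset and is not necessarily a number of fragments.

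An implied count of 2 was read in 782 control-only summits (66.7%, interval 63.9 to 69.4) and in 2123 shared control summits (25.6%, interval 24.6 to 26.5), a difference of 41.1 percentage points (interval 38.2 to 43.9). A count of 3 was read in 257 control-only (21.9%) and 2473 shared control summits (29.8%). A count of 4 was read in 49 control-only (4.18%) and 1202 shared control summits (14.5%). Counts of 5, 6, 7 and 8 were read in 22, 12, 4 and 1 control-only summits. No control-only summit had a count of 9 or more, which allows a share of up to 0.256%, while 271 shared control summits did (3.26%). The score of 46 control-only summits (3.92%) matched no step.

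**Figure D1:**
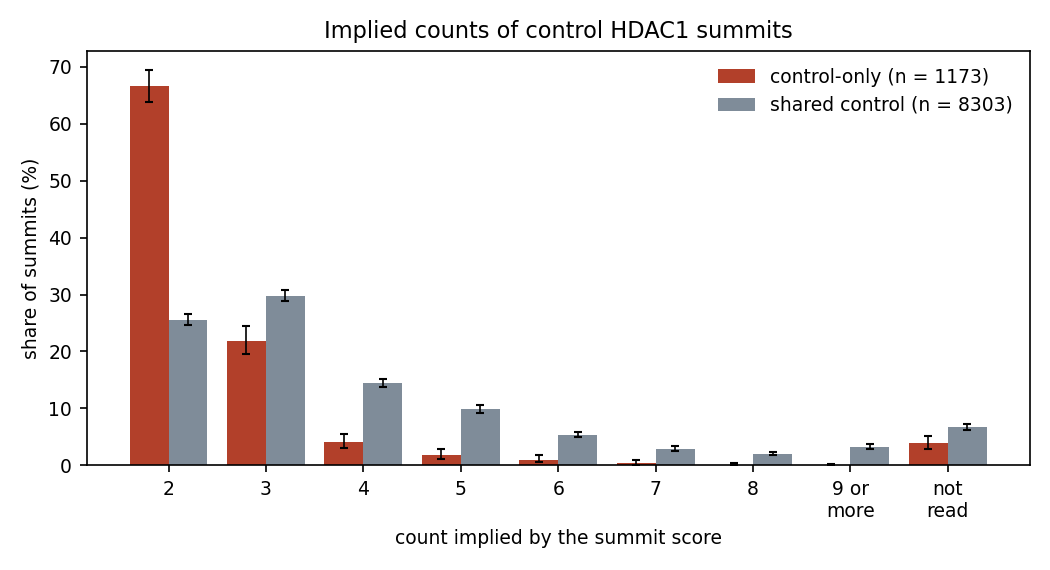
Share of summits (vertical axis, %) by the count implied by the score (horizontal axis) for 1173 control-only and 8303 shared control summits; whiskers are exact 95% intervals. The control-only bars peak at a count of 2 (66.7%), whereas the shared control bars peak at 3 (29.8%).

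Seen from the whole control list, the share without an H89 partner fell steeply with the implied count. It was 26.9% (782 of 2905) at a count of 2, 9.41% (257 of 2730) at 3 and 3.92% (49 of 1251) at 4. At counts of 5 and 6 it was 2.61% in each case (22 of 843 and 12 of 460). At 9 or more it was 0 of 271, which allows up to 1.11%. The H89 list showed the same order at higher levels. Its share without a control partner was 54.6% (1855 of 3400) at a count of 2, 23.6% (681 of 2880) at 3 and 11.9% (170 of 1428) at 4. It then stayed between 10.9% and 12.8% at counts of 5 to 7, and was 4.58% (27 of 590) at 9 or more. At equal implied count, a control summit was thus matched in the H89 list more often than an H89 summit was matched in the control list. The H89 list is the longer one, with 11553 summits of which 27.8% had no control partner, and a difference in depth between the libraries cannot be told apart from the treatment.

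**Figure D2:**
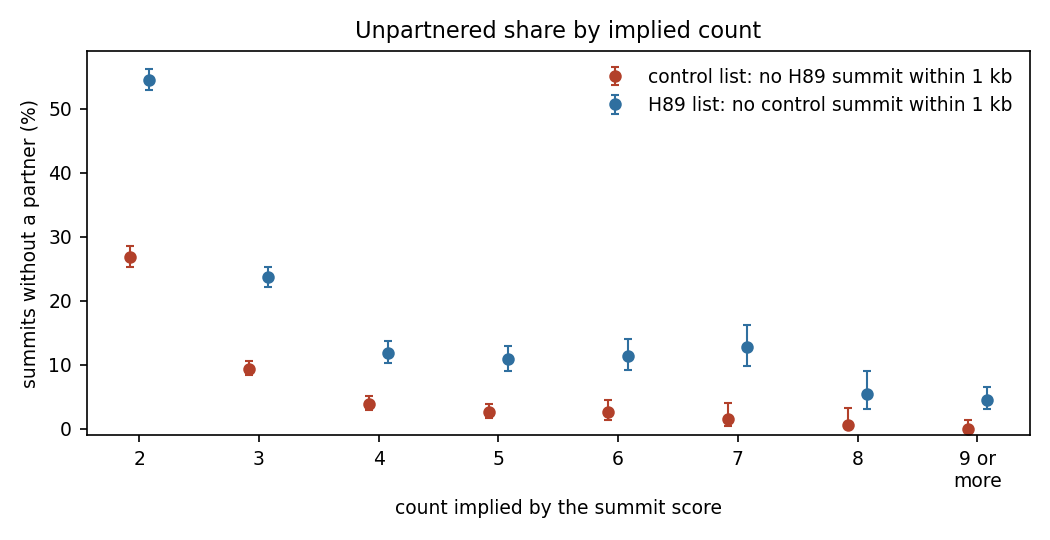
Share of summits without a partner within 1 kb in the other list (vertical axis, %) by implied count (horizontal axis), for the control list and for the H89 list; whiskers are exact 95% intervals. The control points drop below 4% from a count of 4 onward, while the H89 points remain above 10% up to a count of 7.

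Over all counts, the lowest background mean and the pooled higher means were about as frequent in control-only as in shared summits, while some single means were not. The lowest mean was read in 518 control-only summits (44.2%, interval 41.3 to 47.1) and 3426 shared control summits (41.3%, interval 40.2 to 42.3). A higher mean was read in 609 control-only (51.9%) and 4324 shared control summits (52.1%), a difference of -0.159 points (interval -3.22 to 2.89). Single means differed in both directions. A mean of 3 times the second was read in 7.16% of control-only and 4.81% of shared control summits, a difference of 2.36 points (interval 0.932 to 4.03). A mean of 10 times the second was read in 2.73% of control-only and 4.19% of shared control summits (-1.46 points, interval -2.37 to -0.291), and a mean of 1 in 1.71% of control-only and 4.82% of shared control summits (-3.11 points, interval -3.88 to -2.10). Within a count of 2, the control-only share was 26.4% (410 of 1552) at the lowest mean, 28.4% (213 of 750) at the second, 23.7% (98 of 414) at 2 times the second and 32.3% (61 of 189) at 3 times the second, with overlapping intervals.

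At higher counts the control-only share was larger where the background was high, that is, where the same count gave a lower score. Within a count of 3 it was 7.43% (99 of 1332, interval 6.08 to 8.98) at the lowest mean, 5.91% (38 of 643) at the second and 7.43% (24 of 323) at 2 times the second. It was 11.4% (20 of 176) at 3 times the second mean, 31.2% (10 of 32, interval 16.1 to 50.0) at 4 times and 28.4% (54 of 190, interval 22.1 to 35.4) at 5 times. H89 summits with a count of 3 had no control partner in 20.7% (299 of 1447) at the lowest mean and in 53.7% (101 of 188) at 5 times the second.

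A mean of exactly 1 is the highest background that was read. At a count of 5, 9 of 112 control summits with that mean were control-only (8.04%, interval 3.74 to 14.7), against 13 of 731 with other means (1.78%). At a count of 6 it was 8 of 100 with a mean of 1 and 4 of 360 with other means (1.11%). In the H89 list 48 of 96 summits with a count of 5 and a mean of 1 had no control partner, against 67 of 961 with other means (6.97%). Over all counts, 20 of 420 control summits with a mean of 1 were control-only (4.76%, interval 2.93 to 7.26) and 161 of 573 such H89 summits were H89-only (28.1%, interval 24.4 to 32.0).

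At a cut of 10 kb, a minority of control-only summits lay near an H89 site and a majority farther from one. Of the 1173, 405 (34.5%, interval 31.8 to 37.3) had their nearest H89 summit over 1 kb and up to 10 kb away, and 767 (65.4%) had it farther off. The remaining summit lay on an unplaced contig without any H89 summit. The median distance was 24.3 kb (quartiles 5.40 and 75.2 kb) and the longest 3.79 Mb. In steps, 170 lay at 1 to 2 kb (14.5%), 112 at 2 to 5 kb (9.55%), 123 at 5 to 10 kb (10.5%), 543 at 10 to 100 kb (46.3%), 205 at 100 kb to 1 Mb (17.5%) and 19 beyond 1 Mb (1.62%).

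Beyond 2 kb this spacing was near that of the shared sites, whereas the first step held more control-only summits. The nearest H89 summit of a shared control summit other than its partner, counted beyond 1 kb, lay at a median of 23.9 kb (quartiles 6.38 and 70.0 kb). It was within 1 to 2 kb for 9.88% of shared control summits (interval 9.24 to 10.5), below the 14.5% of control-only summits (interval 12.5 to 16.6). It was at 2 to 5 kb for 11.6% and at 5 to 10 kb for 11.2% of shared control summits, with intervals that overlapped those of control-only summits. Over 1 to 10 kb together, the share was 32.7% of shared control summits (interval 31.7 to 33.7) and 34.5% of control-only summits (interval 31.8 to 37.3). H89-only summits had 9.09% at 1 to 2 kb (interval 8.12 to 10.1) from a control summit and a median of 31.0 kb.

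**Figure D3:**
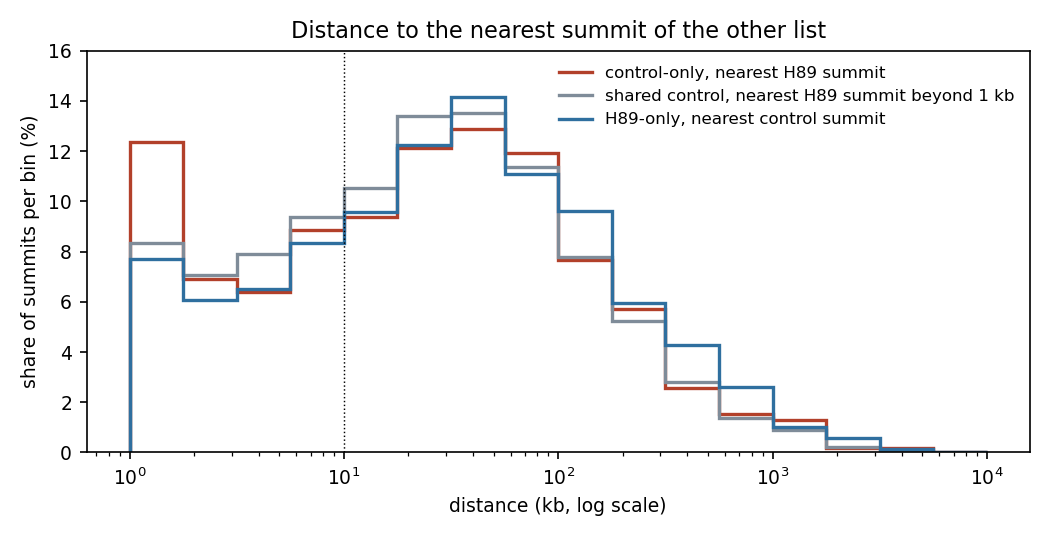
Share of summits per bin (vertical axis, %) by distance on a log scale (horizontal axis, kb) from control-only summits to the nearest H89 summit, from shared control summits to the nearest H89 summit beyond 1 kb, and from H89-only summits to the nearest control summit; the dotted line marks 10 kb. The control-only curve is above the other curves in the first bin and runs close to the shared one from there to 100 kb.

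The distances had no gap at the limit of 1000 bp. In steps of 100 bp ending at 900, 1000, 1100 and 1200 bp from an H89 summit there were 54, 32, 34 and 26 control summits. The member closest to the limit, in 9q34.11, lay 1003 bp from an H89 summit and scored 3.45. The excluded summit closest to it, in 16p13.3, lay 993 bp away and scored 2.04.

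For control-only summits within 10 kb of an H89 site, that neighbour was both shared with the control list and higher-scoring by more than 0.1 in 222 of 405 cases (54.8%, interval 49.8 to 59.7). Their nearest H89 summit had a control partner of its own in 296 of 405 cases (73.1%, interval 68.5 to 77.4). It scored higher than the control-only summit by more than 0.1 in 273 (67.4%) and lower by more than 0.1 in 64 (15.8%). The median score was 2.97 for the near members and 4.76 for those H89 neighbours, the same as the 4.76 of all H89 summits. In the whole H89 list 27.8% of summits had no control partner, so the neighbours had one about as often as any H89 summit. Another control summit lay within 10 kb of 324 of the 405 near members and of 55 of the 768 others (7.16%). This contrast follows in large part from the split, because an H89 neighbour with a control partner puts that partner close to the near member. Near members had an implied count of 2 in 62.0% (interval 57.0 to 66.7), against 69.1% (interval 65.7 to 72.4) of the others.

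Near and far members also differed in where they lay, and shared sites split by distance mostly did too. On the autosomes, 154 of 396 near members (38.9%, interval 34.1 to 43.9) were on chromosomes 2, 14, 16, 17 and 20, known gains of the HepG2 karyotype, against 205 of 735 far members (27.9%, interval 24.7 to 31.3). For shared control summits split at 10 kb by their next H89 summit the shares were 38.9% and 28.1%. A local background above the lowest mean was read in 60.0% of near and 47.7% of far members, and in 62.2% and 47.2% of the shared control summits split in that way. Terminal bands, the first and last of each chromosome, held 75 of 401 near members (18.7%, interval 15.01 to 22.9) and 111 of 756 far members (14.7%, interval 12.2 to 17.4). Of the shared control summits they held 19.8% of those with the next H89 summit within 10 kb and 11.1% of the rest (interval 10.3 to 12.0). Among sites far from the next H89 summit the intervals of control-only and shared summits thus did not overlap in terminal bands.

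By chromosome band the control-only summits were placed much as the shared ones were. Giemsa staining divides chromosomes into pale bands, known to be gene-rich and early replicating, and dark bands, known to be gene-poor. On the primary chromosomes, Giemsa-negative bands held 776 of 1157 control-only summits (67.1%, interval 64.3 to 69.8) and 5255 of 8063 shared control summits (65.2%, interval 64.1 to 66.2), a difference of 1.90 points (interval -1.05 to 4.74). The palest Giemsa-positive class held 10.6% of control-only and 12.6% of shared control summits. The medium class held 12.7% and 11.2% in the same order of sets, and the next darker class 5.36% and 6.44%. The darkest class held 39 control-only summits (3.37%) and 303 shared ones (3.76%), a difference of -0.387 points (interval -1.38 to 0.880). No interval of these 5 differences left out 0, but with a pairing distance of 500 bp the Giemsa-negative difference was 2.79 points (interval 0.0962 to 5.40).

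In density this came to 0.594 control-only and 4.02 shared summits per Mb in Giemsa-negative bands, and to 0.0782 and 0.608 per Mb in the darkest bands. Among control summits with an implied count of 2, the control-only share was 27.6% in Giemsa-negative bands (512 of 1855) and 23.5% in the darkest (28 of 119, interval 16.2 to 32.2). Centromeric bands held 7 control-only of 34 control summits (20.6%, interval 8.70 to 37.9), while 3 of their 31 H89 summits were H89-only (9.68%, interval 2.04 to 25.8).

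**Figure D4:**
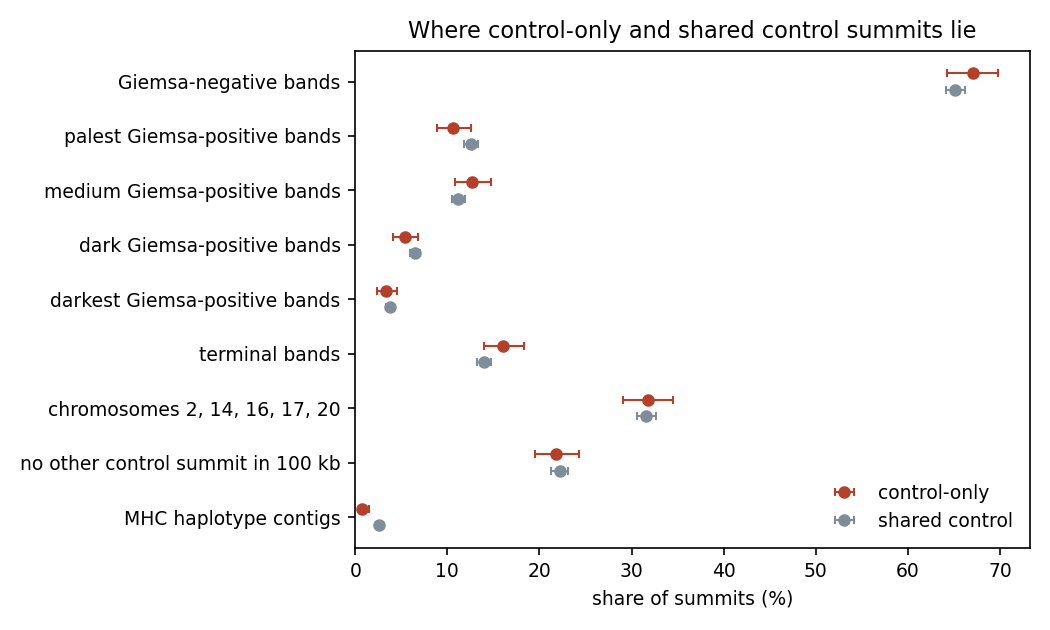
Share of summits (horizontal axis, %) in each class of position for control-only and shared control summits, with exact 95% intervals. The intervals overlap in every class drawn except the MHC haplotype contigs, with 0.767% of control-only and 2.59% of shared control summits.

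On the chromosomes themselves, terminal bands came closest to a difference. They held 186 control-only summits (16.1%) and 1123 shared ones (13.9%, interval 13.2 to 14.7). The difference of 2.15 points had an interval of 0.000633 to 4.50. The interval included 0 with summits within 500 bp merged (-0.00817 to 4.49), with a pairing distance of 2000 bp (-0.721 to 4.04) and among scores of 3 or more (-1.59 to 3.99). It also did so within an implied count of 2 (-1.21 to 4.67) and without members up to 2 kb from an H89 summit (-0.619 to 4.15). It left out 0 with a pairing distance of 500 bp (0.117 to 4.23) and among implied counts of 3 or more (0.0415 to 8.20). By score, the difference was 1.99 points from 2 up to 3, -1.47 from 3 up to 4 and 5.00 from 4 up to 6, each with an interval that included 0. Within 5 Mb of a chromosome end the shares were 17.2% of control-only and 15.8% of shared control summits, and within 1 Mb they were 5.27% and 4.72%. Terminal bands held 17.6% of H89-only summits (547 of 3108). The gained chromosomes 2, 14, 16, 17 and 20 held 31.7% of control-only and 31.6% of shared control summits on the autosomes, a difference of 0.141 points (interval -2.70 to 3.09). Among summits with an implied count of 2 these shares were 30.9% and 27.2%, a difference of 3.75 points (interval -0.0116 to 7.64).

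Crowding within 500 kb had the same median and quartiles in both sets, whereas summits with a very close neighbour were less often control-only. Within 500 kb on each side, control-only and shared control summits had a median of 8 other control summits each (quartiles 4 and 14 in both). No other control summit lay within 100 kb of 256 control-only summits (21.8%, interval 19.5 to 24.3) and of 1842 shared ones (22.2%). This difference of -0.360 points (interval -2.80 to 2.25) turned to 3.12 points (interval 0.387 to 6.02) with a pairing distance of 2000 bp and to 2.74 points (interval 0.00773 to 5.65) without members up to 2 kb from an H89 summit. Control summits within 1 kb of another control summit were control-only in 25 of 360 cases (6.94%, interval 4.54 to 10.1), below the 12.4% of all control summits. Within an implied count of 2 it was 16 of 159 (10.1%, interval 5.86 to 15.8), against 26.9% in the list. The H89 list had the same order, with 103 of 496 such summits H89-only (20.8%), against 27.8% of all. A single H89 summit can be the partner of 2 close control summits, so the pairing rule itself can lower these shares. Control summits over 1 Mb from any other were control-only in 27 of 158 (17.1%, interval 11.6 to 23.9).

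The contigs outside the primary chromosomes held few control-only summits. There were 16 (1.36%, interval 0.782 to 2.21), against 240 shared control summits (2.89%, interval 2.54 to 3.27), a difference of -1.53 points (interval -2.17 to -0.620). The interval included 0 among scores of 3 or more (-1.21 points, interval -2.07 to 0.146) and among implied counts of 3 or more (-1.05 points, interval -2.10 to 0.991). The low number came from the 7 haplotype copies of the major histocompatibility complex, the region of antigen-presenting proteins, where 9 of 224 control summits were control-only (4.02%, interval 1.85 to 7.49) and 98 of 318 H89 summits were H89-only (30.8%). Among control summits of these contigs with an implied count of 2, 4 of 59 were control-only (6.78%, interval 1.88 to 16.5), against 26.9% in the whole list. Bands 6p21.31 to 6p21.33 of chromosome 6 itself had 4 control-only of 62 control summits (6.45%, interval 1.79 to 15.7). Singly, 6p21.31 had 3 of 21, 6p21.32 had 1 of 15 and 6p21.33 had 0 of 26 (interval 0 to 13.2). The adjoining band 6p22.1 had 6 of 27 (22.2%, interval 8.62 to 42.3). Which stretch of chromosome 6 the contigs match was not mapped here. The 7 contigs describe 1 region, so they are not independent sites. Other contigs held 7 control-only of 32 control summits (21.9%, interval 9.28 to 40.0), of which 6 were on unplaced contigs.

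Across chromosomes the control-only share was even, and it was lowest on chromosome 3. The highest autosomal shares were on chromosome 21 (13 of 79, 16.5%), chromosome 15 (40 of 256, 15.6%) and chromosome 13 (17 of 119, 14.3%). Chromosome X had 22 of 127 (17.3%). The lowest were on chromosome 3 (33 of 450, 7.33%, interval 5.10 to 10.1), chromosome 18 (11 of 104, 10.6%, interval 5.40 to 18.1) and chromosome 22 (27 of 252, 10.7%, interval 7.18 to 15.2), with overlapping intervals. Chromosome 3 was the only 1 of 22 autosomes whose interval left out 12.4%, which counting error alone can give among 22 intervals. Its share was also low among summits with an implied count of 2, at 26 of 164 (15.9%, interval 10.6 to 22.4), although such summits made up 36.4% of its control summits. Among summits with that count, chromosome 20 had 44 control-only of 114 (38.6%, interval 29.6 to 48.2) and chromosome 6 had 46 of 130 (35.4%, interval 27.2 to 44.3), both above the 26.9% of the list. Chromosomes 20 and 6 were picked out after these values were seen. The H89-only share of chromosome 3, 27.4% (156 of 570), was close to the 27.8% of the whole H89 list. Per Mb, control-only summits were densest on the gene-dense chromosome 19 (1.42) and on chromosome 17 (1.10). Their control-only shares, 12.6% (84 of 669) and 12.4% (89 of 716), were near that of the whole list.

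**Figure D5:**
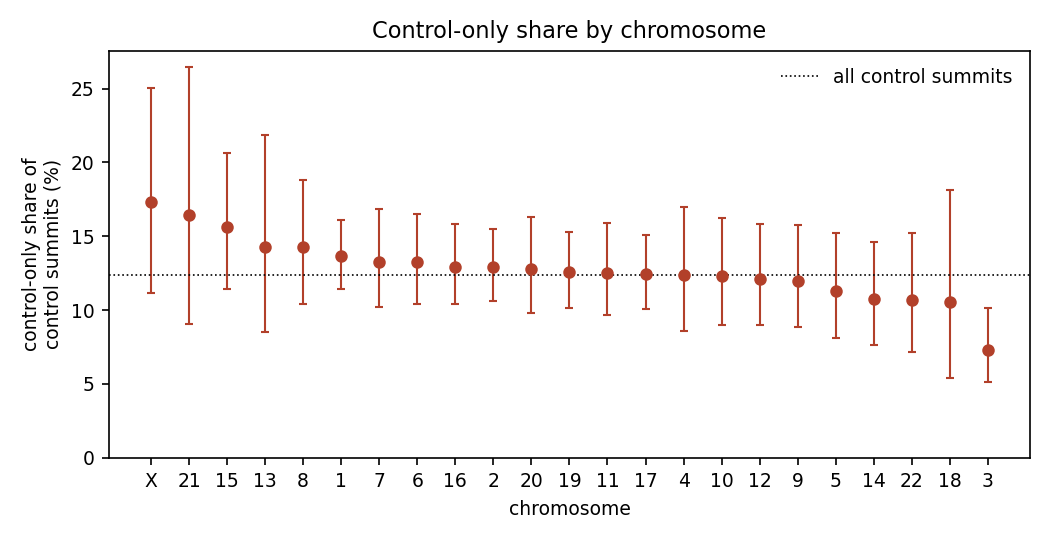
Control-only share of control summits (vertical axis, %) on each autosome and chromosome X (horizontal axis), in falling order, with exact 95% intervals; the dotted line is the share over all control summits. Chromosome 3, at 7.33%, is the only autosome whose interval lies off the line.

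Single bands ranged from 0% to 32.4% among the 74 bands with at least 30 control summits. Bands hold fewer summits than most chromosomes, so counting error alone widens their range. The control-only summits were spread over 430 of the 731 bands with a control summit. In 3 of the 74 bands the interval of the share lay above 12.4% and in 2 below it. Gene names below are textbook locations of bands; summits were not assigned to genes, since no annotation of hg19 was at hand.

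The most control-only summits lay in 19q13.33, a gene-rich band that holds BAX, a promoter of apoptosis, and FTL, the light chain of ferritin. It had 17 control-only of 59 control summits (28.8%, interval 17.8 to 42.1). Bands 16p11.2 (16 of 89, 18.0%) and 19p13.3 (16 of 139, 11.5%) followed. Next came 17q25.1 (13 of 84, 15.5%) and 17q25.3 (13 of 110, 11.8%), the band of the fatty acid synthase gene FASN. Bands 17q25.3 and 19p13.3 were close to the share of the whole list and led by their many control summits.

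The highest share was in 6q27, where TBP, the TATA-binding protein gene, lies, with 12 of 37 (32.4%, interval 18.0 to 49.8). After 19q13.33 came 5q31.1, known for the cytokine genes IL4 and IL13 (9 of 34, 26.5%), 17p13.3 (7 of 33, 21.2%) and 20q13.13 (12 of 58, 20.7%). The last band holds CEBPB, a transcription factor gene of the liver acute-phase response. All 12 of its control-only summits had an implied count of 2, whereas 4 of the 17 in 19q13.33 did. The lowest shares were in 19q13.42, the band of the killer-cell immunoglobulin-like receptors, and in 22q13.2, the band of the histone acetyltransferase gene EP300. They had 0 of 34 and 0 of 32 control-only summits, which allows up to 8.82% and 9.38%, while 14 of 48 and 11 of 42 of their H89 summits were H89-only. Bands 2q13 (1 of 41), 17q21.2 (1 of 40) and 17q21.33 (1 of 32) were next.

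There were 1173 control-only and 3213 H89-only summits in all, so in most bands the control-only summits were outnumbered by H89-only summits. They were fewer in 514 bands, equal in 64 and more numerous in 89. Of the 66 bands with at least 5 control-only summits, 9 had more control-only than H89-only summits and 5 had equal numbers. They included 19q13.33 (17 control-only and 14 H89-only), 16p11.2 (16 and 14), 20q13.13 (12 and 11), 6q27 (12 and 12), 1q21.2 (6 and 3) and 6p22.1 (6 and 4). The largest imbalance was in 6q14.1, with 5 control-only and 1 H89-only summits. These bands were chosen after their values were seen.

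Some control-only summits followed each other along a chromosome with no shared control summit between them. Of the 1173, 841 stood alone between shared summits and 332 (28.3%, interval 25.7 to 31.0) fell into 150 runs of 2 or more. In 113 of these runs no H89 summit of any kind lay between the first and the last. The longest runs were picked out after their values were seen. H89-only summits, which make up a larger share of their list, had 50.8% in such runs and a longest run of 7. With 12.4% of control summits control-only, a random order would also give runs, and how many was not worked out.

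The longest control-only run held 6 summits over 127 kb of 19q13.33 on chromosome 19, inside a gap of 237 kb between H89 summits at 50595959 and 50832632. Its first 5 summits were evenly spaced, at 50610683, 50615993, 50621413, 50626743 and 50632027, with gaps of 5.31, 5.42, 5.33 and 5.28 kb. Each of the 5 had an implied count of 3 against a raised local background, at 5 to 8 times the second mean, and they scored 2.17, 2.51, 2.51, 2.51 and 2.73. The sixth, at 50737696, scored 5.50 at the lowest mean. No other place in the control list had 3 successive gaps under 100 kb that agreed within 5%, and 1 place in the H89 list did, in 16p13.3. Band 19q13.33 is known to hold tandem arrays of snaR small noncoding RNA genes. Whether these summits lie in such copies, and whether reads that fit several copies were kept, was not tested. Without these 5 summits the band had 12 control-only of 54 control summits (22.2%, interval 12.04 to 35.6). That interval no longer lies above 12.4%, and 12 is fewer than the 14 H89-only summits of the band and than the 16 control-only summits of 16p11.2 and of 19p13.3.

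Other long runs had irregular gaps. In 20q13.33 on chromosome 20, 5 control-only summits spanned 199 kb from 61922592 to 62121862, and the last 3, within 10 kb of each other, scored 5.50, 5.50 and 3.45. In 2p22.2 to 2p22.1 on chromosome 2, 5 summits spanned 535 kb from 38189513 to 38724351, with scores from 2.38 to 3.45, inside a gap of 677 kb without an H89 summit. In 16p11.2 on chromosome 16, 4 summits spanned 70.4 kb from 28538001 to 28608404, and the highest scored 3.67. In 4q35.1 on chromosome 4, 4 summits spanned 376 kb from 184649928 to 185025923, inside an H89 gap of 729 kb, and all 4 had an implied count of 2.

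Few control-only summits scored high. The highest, at 88999893 of chromosome 16 in 16q24.3, scored 14.7 with an implied count of 7 at the lowest background, and the nearest H89 and other control summits were 76.6 and 76.7 kb away. Another, at 170199856 of chromosome 6 in 6q27, scored 9.94 with an implied count of 5 and lay 1.31 kb from an H89 summit that scored 5.49.

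Of the other summits among the 10 highest, 6 scored 7.67 with an implied count of 4. Away from H89 sites were 139097121 of chromosome 8 in 8q24.23, 1.78 Mb from the nearest H89 summit, and 47566389 of chromosome 22 in 22q13.31, 83.6 kb away. The other 4 had an H89 summit within 1.13 kb. The H89 neighbours of those at 140005311 of chromosome 4 (4q31.1), 72746745 of chromosome 17 (17q25.1) and 52520995 of chromosome 1 (1p32.3) scored 12.3, 10.8 and 8.71. The neighbour of 55939728 of chromosome 17 (17q22) scored 7.66, which is the same step of the H89 list. The tenth, at 121485198 of chromosome 1 in 1p11.2 beside the centromere, scored 7.38, with an H89 summit of score 9.92 at a distance of 157 kb.

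The control-only summits farthest from H89 sites lay in dark bands. At 51582931 of chromosome 11 in 11p11.12, which adjoins the centromere, the nearest H89 summit was 3.79 Mb away and the score was 2.24. The summits at 39299431 of chromosome 12 in 12q12 (score 3.45), 19555849 of chromosome 12 in 12p12.3 (2.97) and 67805661 of chromosome 6 in 6q12 (5.50) were 3.24, 3.14 and 2.70 Mb away, all in bands of the darkest class. The fifth was the 8q24.23 summit named above. Other control summits were about as far from them as H89 summits were, except in 12p12.3, where the nearest was 2099 kb away.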

How the data were processed

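Per the labels, CUT&Tag was done in HepG2 cells with or without H89, and there are 3 samples in 3 groups of 1 library. Bowtie 0.12.2 and hg19 appear in the submitters' processing notes. Caller, control library, threshold and treatment of multiply mapped reads were not given in the sources used here. The authors deposited 1 table of single-base summits per HDAC1 library, with a score read here, from its values, as an unadjusted −log10 p-value. Tables were tied to samples by the peak names, which match the titles. Positions are 1-based on hg19.

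Control-only summits had no H89 summit within 1000 bp. Bands came from the hg19 table of circlize 0.4.16 (R 4.3.3). Shares carry exact 95% intervals and differences Newcombe intervals, with a limit of 3 counts for a count of 0. No test was run, since each condition has 1 library. Depth is unknown. Named summits were the 10 highest-scoring and the 5 farthest from an H89 summit on the autosomes and X; named bands were the 5 with the most control-only summits and the 5 highest and 5 lowest shares at 30 or more control summits, with the 3 highest and lowest autosomes. Members, classes and this rule were chosen with earlier results of these data known. The distance and count functions were tested on 2000 simulated summits and recovered 100% of planted pairs and counts. Pairs and scores were planted by the rules that the functions apply, so this checks the code and not the reading of the scores. One of the summits that the rule names is not reported here. No genome of hg19 was at hand, so no sequence is shown. Software was scipy 1.17.1, pandas 2.3.3, numpy 2.4.6 and matplotlib 3.10.9 under Python 3.11.15.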

Additional observations from a re-analysis of the deposited data

How the results depend on the processing

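The number of control-only summits was 1438 with a pairing distance of 500 bp, 1003 with 2000 bp, 678 among control scores of 3 or more, and 345 among implied counts of 3 or more. The near share, 34.5%, was 46.6% with 500 bp, 23.4% with 2000 bp, 29.5% at scores of 3 or more and 23.4% without members up to 2 kb from an H89 summit. Changing the pairing distance moves the lower limit of that share by construction. The median score difference of -1.32 was -2.05 at scores of 3 or more, -1.53 at implied counts of 3 or more and 0 within a count of 2. The difference in isolated summits, -0.360 points, was 3.12 points with 2000 bp and 2.74 without members up to 2 kb. The difference in gained chromosomes, 0.141 points, was 3.75 within a count of 2; the cause was not tested. The other 59 of 71 values stayed within the interval of the main value (for the number of summits, within 1.5 times it), although the intervals of the differences in terminal bands, Giemsa-negative bands and contigs came to include or leave out 0 under some alternatives. Alternatives by implied count, and the one without members up to 2 kb, were chosen after seeing the data. No paired analysis was possible because each condition has a single library. Unknown depth limits all values.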
